A study of Mus musculus with 12 samples.

Results

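Telomerase and shelterin were followed in mouse osteosarcoma cells through 10 genes of the 20144 genes named on the arrays. The telomerase genes were Tert, Dkc1 and Nhp2, and the shelterin genes were Terf1, Terf2, Terf2ip, Tinf2, Pot1a, Pot1b and Acd. Members were chosen by name, and their probes were found through the accession that the array files give for each probe, which matched 14 of 39429 probes. The cells were Dunn, a mouse osteosarcoma line of low metastatic potential, and LM8, a metastatic line derived from Dunn cells by selection in animals. Neither line was treated, and both were grown in the same medium with fetal calf serum. Dunn cells were sampled early, at passage 25 (group Dunn_25), and late, at passage 86 (Dunn_86), and LM8 cells likewise at passage 24 (LM8_24) and passage 91 (LM8_91). Each group had 3 arrays, which the labels describe as independent cultures, so the values describe cultures of a single line each. According to the paper, late cells were grown on from early cells. Both were frozen, then thawed and kept for 3 more passages before RNA was extracted. No repeat of the long culture is described, so p-values of late versus early cells do not measure how well a passage effect repeats. The 12 arrays lay on 3 slides, and each slide held 1 array of every group, always at the same position, so that position and group cannot be told apart.

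Telomerase adds telomeric repeats to chromosome ends. Tert is its reverse transcriptase and Terc its RNA template, while Dkc1 (dyskerin) and Nhp2 belong to the protein complex that binds and stabilises the RNA. Shelterin is the complex that covers telomeric DNA and keeps the ends from being treated as breaks. Terf1 and Terf2 bind the duplex repeats, Pot1a and Pot1b bind the single-stranded overhang, Tinf2 and Acd (TPP1) bridge the proteins, and Terf2ip (Rap1) is carried by Terf2. Mice have a pair of Pot1 genes where humans have a single gene. In osteosarcoma, telomeres are known to be kept either by telomerase or by a recombination pathway called alternative lengthening of telomeres. Loss of the chromatin factors Atrx or Daxx is known to go with that pathway.

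The sequence upstream of the start of 4 members is shown because the only called genes among the listed regulators of Tert, Myc and Klf4, encode factors that bind short motifs in promoters, and because the described differences turn on Dkc1, Nhp2 and Acd. Each line is the 250 bases before the RefSeq start in GRCm38.p6, 5′ to 3′ on the gene's strand, with GC boxes in capitals.
Tert (chr13:73626661-73626910, + strand): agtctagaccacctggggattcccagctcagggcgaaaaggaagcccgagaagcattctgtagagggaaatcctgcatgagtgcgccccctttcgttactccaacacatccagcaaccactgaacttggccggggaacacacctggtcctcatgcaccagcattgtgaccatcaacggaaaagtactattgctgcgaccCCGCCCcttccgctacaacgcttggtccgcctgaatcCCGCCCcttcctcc
Dkc1 (chrX:75095604-75095853, + strand): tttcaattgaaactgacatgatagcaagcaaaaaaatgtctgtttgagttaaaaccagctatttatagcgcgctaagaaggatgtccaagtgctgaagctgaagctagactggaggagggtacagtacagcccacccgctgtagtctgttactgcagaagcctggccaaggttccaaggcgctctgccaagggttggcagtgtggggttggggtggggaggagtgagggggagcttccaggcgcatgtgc
Nhp2 (chr11:51619523-51619772, + strand): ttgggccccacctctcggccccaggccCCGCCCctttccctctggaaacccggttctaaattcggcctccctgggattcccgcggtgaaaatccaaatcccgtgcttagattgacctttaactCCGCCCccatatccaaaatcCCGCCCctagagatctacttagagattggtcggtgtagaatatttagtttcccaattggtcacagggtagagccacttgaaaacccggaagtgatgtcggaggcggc
Acd (chr8:105701229-105701478, - strand): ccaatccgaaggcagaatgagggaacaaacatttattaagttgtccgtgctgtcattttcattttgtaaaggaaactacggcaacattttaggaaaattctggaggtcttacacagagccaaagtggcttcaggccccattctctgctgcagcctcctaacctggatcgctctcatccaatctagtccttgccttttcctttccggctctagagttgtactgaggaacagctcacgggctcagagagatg
The E-box CACGTG, the motif of Myc, was searched together with the GC box GGGCGG, the motif of Sp1, each on both strands. No motif of Klf4 was searched. The E-box was in no window of the 9 members with an entry, against 6.86% of all 27025 genes with an entry. The GC box was in 4 of the 9 members, Tert, Nhp2, Pot1a and Pot1b, against 35.4% of all genes with an entry. Tert held GC boxes that began 51 and 14 bases before the start, and Nhp2 held 3. No entry was found for Terf1. A match is a description of letters and not of binding.

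Levels are log2 signals relative to the 75th percentile of the same array, so that 0 means a spot as bright as that percentile, and they are compared between groups for a given probe but never between probes. A probe is called well above background where the scanner software set that mark. Whether groups overlap is given for the members only. How often the groups did not overlap among all genes was not counted, so a lack of overlap does not set a member apart. The median 75th percentile of the 3 arrays rose from 386.5 in Dunn_25 to 756.6 in Dunn_86, 1207 in LM8_24 and 1365 in LM8_91, and between 39.0% and 59.6% of probes were well above background. Dunn_25 replicate 1 had the lowest share and a median local background of 87, against 22.5 to 34 on the other arrays. The median SD of a probe was 0.85 in Dunn_25, 0.97 in Dunn_86, 0.29 in LM8_24 and 0.32 in LM8_91. Over probes well above background on all arrays it was 0.35, 0.24, 0.21 and 0.19. Each fit pools the spread of its groups. Replicate arrays correlated with r between 0.908 and 0.989 over all probes, the lowest values being those of Dunn_86 replicate 1 with the other two. Of the osteoblast markers, Runx2, Sp7, Col1a1 and Ibsp were well above background on all 12 arrays, while Alpl, Col1a2 and Spp1 were not. Among markers of other cell types, Csf1r (myeloid) and Kdr (endothelial) were well above background on all 12 arrays, Cdh5 (endothelial) and Cdh1 (epithelial) on none, and the others on some.

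None of the 10 members passed an adjusted p under 0.05 in limma in any comparison. In late versus early Dunn cells 0 of 10 members passed, against 0.00497% of all genes, and 0 had an unadjusted p under 0.05, against 6.81%. The slide paired the early and late Dunn arrays, and with it as a block 1 member, Nhp2, had an unadjusted p under 0.05, while 0 members and 0 genes passed after adjustment. The share of all genes with an unadjusted p under 0.05 in the blocked fits is not given here. The blocked member counts in this and the other comparisons therefore do not set the members apart. In late versus early LM8 cells 0 of 10 passed, against 2.82% of all genes, and 2 members, Dkc1 and Acd, had an unadjusted p under 0.05, against 15.9%. Both stayed under 0.05 in limma when blocked on the slide, at 0.0137 and 0.0395. Between the lines at early passage 0 of 10 passed, against 4.55% of all genes, and Terf2 and Acd had an unadjusted p under 0.05, against 42.6%, which became 0 members when blocked on the slide. Between the lines at late passage 0 of 10 passed, against 3.83% of all genes, and Dkc1 and Acd had an unadjusted p under 0.05, against 22.2%, of which Dkc1 was left when blocked on the slide. The methods' t-test called 0 members after Benjamini-Hochberg adjustment in the first 3 of these comparisons and 1, Acd, in the last. In that last comparison it called 1377 of all genes. By the rule of over 2-fold at an unadjusted p under 0.05, 0 of 10 members passed in Dunn passage, against 4.86% of all genes, and 1 of 10, Dkc1, which was higher, in LM8 passage, against 7.29%. Between the lines 0 of 10 passed at early passage, against 36.7%, and 1 of 10, again Dkc1 and higher in LM8 cells, at late passage, against 13.3%.

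The scaling set where 0 lay. Over all genes the median log2 difference was -0.34 in late versus early Dunn cells, -0.18 in late versus early LM8 cells, -0.76 in LM8 versus Dunn cells at early passage and -0.55 at late passage. The members' medians in the same order were -0.03, 0.06, -0.21 and -0.04, and the median over the 3 telomerase genes was 0.34, 0.43, 0.01 and 0.17 against -0.15, 0.02, -0.43 and -0.26 over the 7 shelterin genes. Over genes well above background on all arrays compared, the median was -0.30, -0.06, -0.49 and -0.25.

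**Figure D1:**
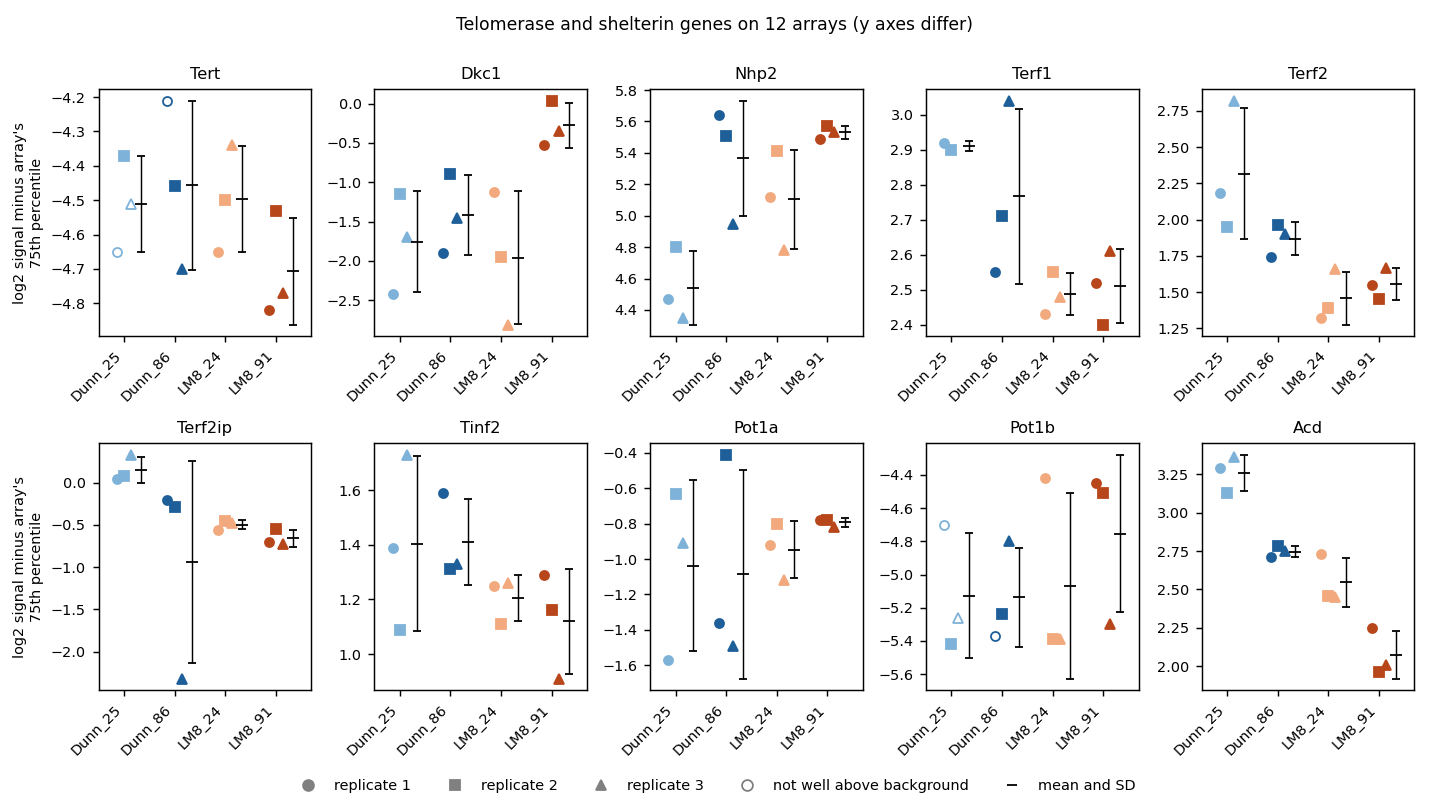
Level of each member on the 12 arrays, as the log2 signal of its brightest probe minus the 75th percentile of the array (y axis, scale differing between panels), by group (x axis). Symbols mark the replicate number, open symbols a spot not well above background, and bars the mean and SD of the group. Dkc1 is highest in LM8_91, and Acd steps down from Dunn_25 to LM8_91.

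Tert was dim in all groups and did not differ between them beyond the spread of the arrays. Its probe (chromosome 13, 73626911-73649843 in GRCm38.p6 for the gene) lay at -4.65, -4.37 and -4.51 in early Dunn cells, where 1 of 3 arrays was well above background, and at -4.21, -4.46 and -4.70 in late Dunn cells, where 2 of 3 were. In early LM8 cells it lay at -4.65, -4.50 and -4.34 and in late LM8 cells at -4.82, -4.53 and -4.77, well above background on all arrays. The 4 groups overlapped in every comparison. The group means ran from -4.71 ± 0.16 (SD, n = 3) in late LM8 cells to -4.46 ± 0.25 (SD, n = 3) in late Dunn cells, with early Dunn and early LM8 cells between them at -4.51 ± 0.14 and -4.49 ± 0.16 (SD, n = 3 each), and the SD ranges of neighbours in this order overlapped. The interval of the difference was -0.70 to 0.80 for late versus early Dunn cells and -0.67 to 0.25 for late versus early LM8 cells, so changes inside these limits could not be told from none. Processed signals of 12.6 to 82.6 were behind these values, and Tert was above background on more arrays in the groups whose arrays were brighter.

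Dkc1 was the member with the largest difference, a higher level in late LM8 cells. Dyskerin is the pseudouridine synthase that holds the telomerase RNA and also modifies ribosomal RNA. Its probe (chromosome X, 75095854-75109776) lay at -2.42, -1.15 and -1.69 in early Dunn cells and at -1.90, -0.89 and -1.46 in late Dunn cells. In early LM8 cells it lay at -1.12, -1.95 and -2.81, and in late LM8 cells at -0.52, 0.04 and -0.35. All late LM8 arrays were above all arrays of the other groups, which overlapped with each other.

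Late LM8 cells averaged -0.28 ± 0.29 and early LM8 cells -1.96 ± 0.85 (SD, n = 3 each), a log2 difference of 1.68 (SE 0.43), or 3.21-fold, with an unadjusted p of 0.00643 and an adjusted p of 0.145 in limma. The difference was positive on each slide, from 0.60 to 2.46, and leaving out 1 array at a time it stayed between 1.26 and 2.11. With signals below the background limit raised to that limit the adjusted p was 0.0258, and over all alternatives it ran from 0.0258 to 0.430. Raising dim signals left the signals of Dkc1 and its difference of 1.68 unchanged, since it was well above background on all 12 arrays. The lower p came through the other probes, whose spread limma shares. Blocking on the slide gave 0.202.

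Against late Dunn cells, at -1.42 ± 0.51 (SD, n = 3), the late LM8 level of Dkc1 was higher by 1.14 (SE 0.34), or 2.20-fold, with an unadjusted p of 0.0185 and an adjusted p of 0.173 in limma. The difference had the same sign on each slide, with 1.38, 0.93 and 1.11. Over probes well above background alone the adjusted p was 0.0471, at the same difference of 1.14, since only other probes were left out. The adjusted p ran up to 0.518 over the alternatives. In the order of the group means, early LM8, early Dunn (-1.75 ± 0.64, SD, n = 3) and late Dunn cells did not differ beyond their SD. At early passage LM8 minus Dunn was -0.21 (SE 0.54), with an adjusted p of 0.777, and the sign was not the same on the 3 slides, at 1.30, -0.81 and -1.12. The passage effect was larger in LM8 than in Dunn cells by 1.35 (SE 0.68), with an unadjusted p of 0.0737 and an adjusted p of 0.992 in the fit over 12 arrays, in which 0 of 10 members passed, against 0.606% of all genes, 0 had an unadjusted p under 0.05, against 6.86%, and 0 were also over 2-fold, against 5.30%.

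Nhp2, a small RNA-binding protein of the same complex, was higher in late than in early cells of both lines by amounts that did not pass the test. Its probe (chromosome 11, 51619773-51623718) lay at 4.47, 4.80 and 4.35 in early and at 5.64, 5.51 and 4.95 in late Dunn cells, without overlap. In early LM8 cells it lay at 5.12, 5.41 and 4.78 and in late LM8 cells at 5.49, 5.57 and 5.53, again without overlap. The difference was 0.82 (SE 0.34), or 1.77-fold, in Dunn cells, with an unadjusted p of 0.0542 and an adjusted p of 0.782 (0.0460 and 0.215 when blocked on the slide), and 0.43 (SE 0.22), or 1.35-fold, in LM8 cells, with an adjusted p of 0.303. It was positive on every slide, at 1.16, 0.71 and 0.60 for the Dunn cells and at 0.37, 0.17 and 0.75 for the LM8 cells. Early Dunn cells were the lowest group at 4.54 ± 0.23, followed by early LM8 cells at 5.10 ± 0.31, late Dunn cells at 5.37 ± 0.36 and late LM8 cells at 5.53 ± 0.04 (SD, n = 3 each), and each group overlapped with its neighbour in this order. LM8 minus Dunn was 0.56 (SE 0.32) at early passage and 0.17 (SE 0.26) at late passage, with adjusted p of 0.217 and 0.655.

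**Figure D2:**
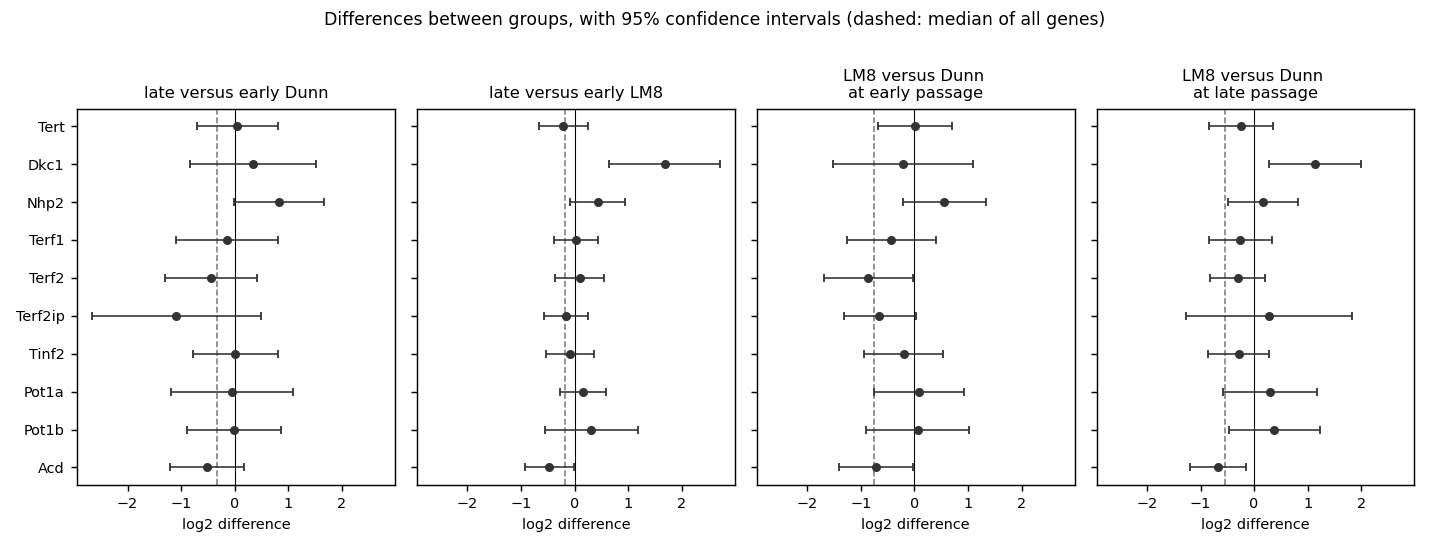
Log2 difference of each member (points) with its 95% confidence interval (bars) in the 4 comparisons of the groups. The dashed line is the median of all genes and the solid line is 0. The interval of Dkc1 lies above 0 in late versus early LM8 and in LM8 versus Dunn at late passage, that of Acd lies below 0 in 3 of the 4 comparisons, and that of Terf2 in LM8 versus Dunn at early passage. The interval of Acd includes the median of all genes in each of the 4 comparisons.

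Terf1, which binds duplex telomeric repeats and is known to restrain telomerase, showed no difference past the test. Its probe (chromosome 1, 15805546-15844052) lay at 2.92 and 2.90 on the 2 early Dunn arrays that measured it, the third spot having been marked as an outlier by the scanner software. The levels were 2.55, 2.71 and 3.04 in late Dunn, 2.43, 2.55 and 2.48 in early LM8 and 2.52, 2.40 and 2.61 in late LM8 cells. Both early Dunn values were above all LM8 values. LM8 minus Dunn was -0.43 (SE 0.33) at early passage, with an adjusted p of 0.350 and only 2 Dunn arrays in the fit, and late minus early was 0.02 (SE 0.17) in LM8 cells.

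Terf2, the other duplex-binding protein and the one that guards chromosome ends against fusion, was measured by 3 probes, all of which gave a negative difference between LM8 and Dunn cells. On the brightest probe (gene at chromosome 8, 107069400-107096548) the levels were 2.18, 1.95 and 2.82 in early Dunn, 1.74, 1.96 and 1.90 in late Dunn, 1.32, 1.39 and 1.66 in early LM8 and 1.55, 1.45 and 1.67 in late LM8 cells. No LM8 array reached the Dunn arrays of the same passage. LM8 minus Dunn was -0.86 (SE 0.35) at early passage, or 1.81-fold lower, with an unadjusted p of 0.0444 (0.0639 when blocked on the slide) and an adjusted p of 0.108, and -0.31 (SE 0.21) at late passage, with an adjusted p of 0.317. The dimmest probe gave -1.06 (SE 0.34) and -0.64 (SE 0.20), with adjusted p of 0.0776 and 0.186, and its groups did not overlap either. The other probe gave -0.46 (SE 0.37) and -0.41 (SE 0.26) with overlapping groups. The median of all genes in the same comparisons was -0.76 and -0.55, and without scaling the early difference of the brightest probe turned to 0.61.

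Terf2ip, the Rap1 protein that rides on Terf2, was measured by 2 probes that disagreed on 1 late Dunn array. On the brighter probe (gene at chromosome 8, 112011359-112020528) early Dunn cells lay at 0.04, 0.08 and 0.33 and late Dunn cells at -0.21, -0.29 and -2.32. The third late Dunn value stood apart from the other two, while the second probe gave -1.28, -2.03 and -1.60 on the same arrays, with replicate 3 in the middle. LM8 cells lay at -0.56, -0.45 and -0.48 early and at -0.70, -0.55 and -0.73 late, so that their spread was small. Late minus early in Dunn cells was -1.09 (SE 0.64) on the brighter probe, with slide values of -0.25, -0.37 and -2.65. On the other probe it was -0.21 (SE 0.40). The adjusted p in limma were 0.782 and 0.947, and 0.366 and 0.787 when blocked on the slide. At late passage LM8 minus Dunn was 0.28 (SE 0.62) on the brighter and -0.90 (SE 0.29) on the second probe, where the groups did not overlap and the adjusted p was 0.196. At early passage the probes gave -0.65 (SE 0.28) and -0.82 (SE 0.36), with adjusted p of 0.128 and 0.124.

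**Figure D3:**
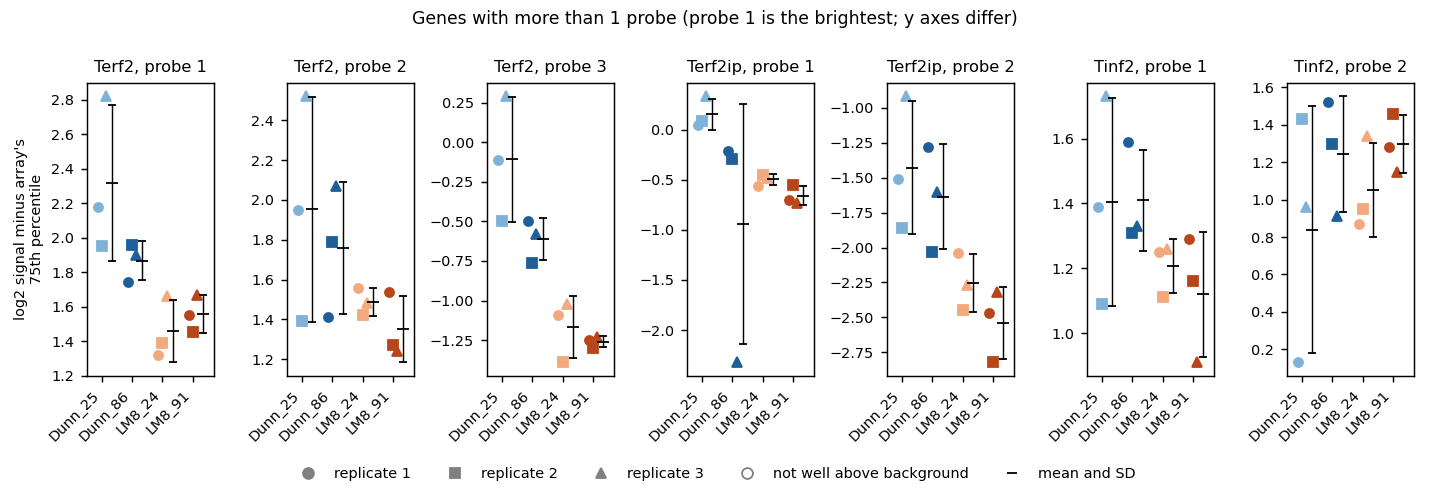
Level by array for the 3 genes with more than 1 probe, as log2 signal minus the 75th percentile of the array (y axis, scale differing between panels), by group (x axis), with the mean and SD of each group. The third late Dunn array is low on the first Terf2ip probe at -2.32 and not on the second. The group means of the 3 Terf2 probes are all lower in LM8 than in Dunn cells. The arrays overlap on the second Terf2 probe, and no probe passed the test.

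Tinf2, the hub that joins Terf1, Terf2 and Acd, was measured by 2 probes, and neither showed a difference past the test. The brighter probe (gene at chromosome 14, 55676208-55682159) had group means of 1.40 ± 0.32 in early Dunn, 1.41 ± 0.16 in late Dunn, 1.20 ± 0.09 in early LM8 and 1.12 ± 0.19 in late LM8 cells (SD, n = 3 each). The second probe ran from 0.84 ± 0.65 in early Dunn to 1.30 ± 0.15 in late LM8 cells. The early Dunn spread of the second probe came with values of 0.13, 1.43 and 0.96.

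Pot1a and Pot1b, which cap the single-stranded overhang, did not differ between groups beyond the spread of the arrays. Pot1a (chromosome 6, 25743940-25809277) had group means of -1.04 ± 0.48 and -1.09 ± 0.59 in early and late Dunn cells and of -0.95 ± 0.16 and -0.79 ± 0.02 in early and late LM8 cells (SD, n = 3 each), and Dunn values ran from -1.57 to -0.41. Pot1b (chromosome 17, 55651190-55712647) was spotted 10 times on each array and was as often above background as Tert, on 1, 2, 3 and 3 of 3 arrays in the 4 groups. Its group means were -5.13 ± 0.38, -5.14 ± 0.30, -5.07 ± 0.56 and -4.76 ± 0.48 (SD, n = 3 each) in Dunn_25, Dunn_86, LM8_24 and LM8_91. The difference closest to the threshold for either gene, late LM8 minus late Dunn for Pot1b at 0.38 (SE 0.34), had an adjusted p of 0.426.

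Acd, the shelterin subunit known to recruit telomerase, was lower in late than in early arrays and lower in LM8 than in Dunn arrays, by amounts that did not pass the test. Its probe (chromosome 8, 105698155-105701228) lay at 3.29, 3.13 and 3.36 in early Dunn and at 2.71, 2.78 and 2.75 in late Dunn cells. In early LM8 cells it lay at 2.73, 2.46 and 2.45, and in late LM8 cells at 2.25, 1.96 and 2.01. The groups did not overlap within a line or at a passage, while late Dunn and early LM8 cells, the middle groups, overlapped.

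The group means of Acd were 3.26 ± 0.12, 2.74 ± 0.04, 2.54 ± 0.16 and 2.07 ± 0.16 (SD, n = 3 each) in Dunn_25, Dunn_86, LM8_24 and LM8_91. Late minus early was -0.52 (SE 0.28), or 1.43-fold lower, in Dunn cells and -0.47 (SE 0.19), or 1.38-fold lower, in LM8 cells, with unadjusted p of 0.113 and 0.0467 and adjusted p of 0.782 and 0.297 in limma. With the slide as a block the unadjusted p were 0.136 and 0.0395 and the adjusted p 0.379 and 0.270. LM8 minus Dunn was -0.72 (SE 0.29), or 1.64-fold lower, at early and -0.67 (SE 0.21), or 1.59-fold lower, at late passage, with adjusted p of 0.104 and 0.180. The median of all genes between the lines was -0.76 at early and -0.55 at late passage, so Acd lay close to it. For late minus early this median was -0.34 in Dunn and -0.18 in LM8 cells. Over genes well above background on all arrays compared, the medians between the lines were -0.49 and -0.25. Each of these medians lay within the confidence interval of the Acd difference. All 12 slide values of Acd were negative, from -0.92 to -0.35, but they reuse the same 12 arrays and are not independent of each other. The passage effects of the lines differed by 0.05 (SE 0.28).

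The level of Acd moved with the brightness of the arrays, since the 75th percentile rose in the order in which Acd fell, and the part of brightness in the difference was not tested. In the unscaled signals LM8 minus Dunn was 0.75 at early and 0.20 at late passage. Over all alternatives the adjusted p of these differences ran from 0.00116 to 0.824 at early and from 0.0336 to 0.751 at late passage, and the lowest early value came with array weights that did not converge. Blocking on the slide gave adjusted p of 0.189 and 0.210 and unadjusted p of 0.0967 and 0.0607.

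**Figure D4:**
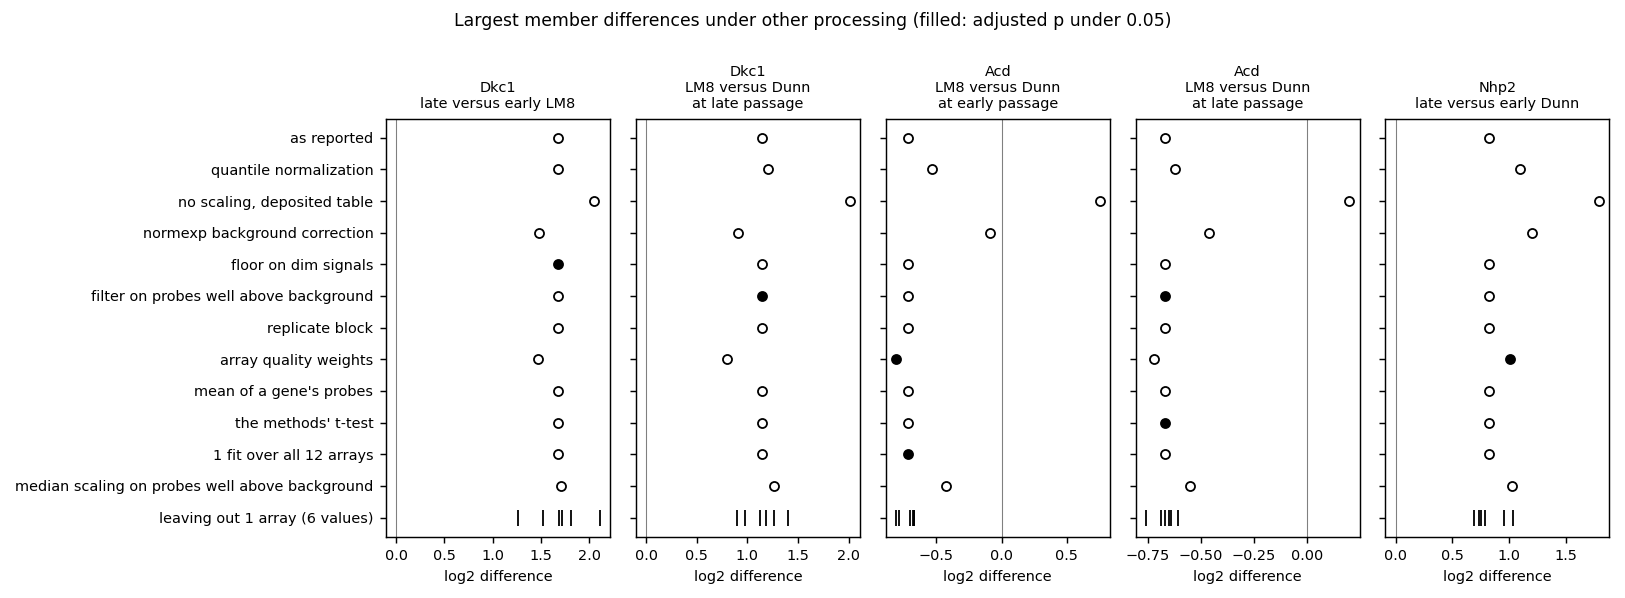
Dkc1 in late versus early LM8 and in LM8 versus Dunn at late passage, Acd in LM8 versus Dunn at both passages and Nhp2 in late versus early Dunn cells (x axes, log2 difference, scale differing between panels) under each way of processing (y axis). Filled points have an adjusted p under 0.05, and ticks in the bottom row are values with 1 array left out. The plotted Dkc1 and Nhp2 differences stay above 0, and those of Acd cross 0 in the unscaled signals.

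The genes whose level followed Dkc1 and Acd most closely over the 12 arrays were described by Pearson's r among 8203 genes well above background on all arrays. For Dkc1 they were Ing5 (r = 0.877), Cpsf2 (0.874) and Tomm40 (0.848). For Acd they were Ssx2ip (0.987), Glce (0.986) and Fiz1 (0.983). All points share the 4 groups and the brightness of the arrays, and 12 arrays are few for so many genes.

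The other genes of the pathway were mostly below the threshold as well, as were nearly all genes, of which 0.00497% to 4.55% passed in the 5 comparisons. Of the 9 genes of telomerase assembly (Terc, Gar1, Nop10, Naf1, Shq1, Wrap53, Ruvbl1, Ruvbl2 and Parn), 0 passed in any of the 5 comparisons. The same held for the 7 genes of the CST complex and its DNA polymerase, which fill in the telomeric strand, for 10 shelterin partners and telomerase modulators such as the tankyrases Tnks and Tnks2, and for 11 repair factors that act at telomeres, such as Wrn and Nbn. The 5 genes of telomere chromatin, with Atrx and Daxx, and the 9 proliferation markers, with Mki67 and Top2a, also had 0 calls. LM8 minus Dunn for Daxx was -1.06 (SE 0.28) at early and -0.83 (SE 0.20) at late passage. The adjusted p in limma were 0.0776 and 0.110, and the median of all genes was -0.76 and -0.55. Atrx was well above background on 2 of 3 arrays in each Dunn group. Its interval for late versus early Dunn cells, -2.31 to 2.60, was too wide to judge a change. The telomerase RNA Terc was dim, well above background on 0 of 3 arrays in both Dunn groups, on 1 in early and on 3 in late LM8 cells. Its late LM8 and late Dunn arrays had an adjusted p of 0.246, and no fold is given since the bound was not above 1.

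Among 7 transcription factors known to act on Tert, Myc was lower in late LM8 than in late Dunn cells, where 3.83% of all genes were called, and Klf4 was higher in early LM8 than in early Dunn cells, where 4.55% were. Myc, an activator of cell growth, averaged 2.05 in late LM8 and 3.50 in late Dunn cells, a difference of -1.46 (SE 0.20), or 2.74-fold lower, with an adjusted p of 0.0257 in limma. Its values were -1.51, -1.43 and -1.43 on the 3 slides, and with the slide as a block the adjusted p was 0.152. At early passage the difference was -1.50 (SE 0.34), with an adjusted p of 0.0656. In the unscaled signals the late difference was -0.59, with an adjusted p of 0.505, and leaving out any 1 array other than Dunn_86 replicate 1 gave an adjusted p between 0.0776 and 0.178.

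Klf4, a zinc-finger factor of stem cells and differentiation, averaged 2.21 in early LM8 and -0.10 in early Dunn cells, where 2 of 3 arrays measured it, as among the late Dunn arrays. The difference was 2.31 (SE 0.40), or 4.96-fold, with an adjusted p of 0.0442, and with the slide as a block the adjusted p was 0.0840. The spot of Dunn_25 replicate 2 had no value. Without any 1 of the arrays that measured Klf4 the adjusted p was between 0.0835 and 0.197, and the differences of 1.89 and 2.73 without Dunn_25 replicates 1 and 3 each rest on a single Dunn array. At late passage the difference was 1.29 (SE 0.30), with an adjusted p of 0.131. Tert itself, the gene these factors are listed for, differed by 0.01 (SE 0.29) between the lines at early and by -0.25 (SE 0.24) at late passage, with adjusted p of 0.973 and 0.462.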

How the data were processed

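Total RNA of 12 cultures was labelled with Cy3 and hybridised to Agilent mouse 4x44k v2 arrays, which have 1 colour. The authors deposited each array's Agilent Feature Extraction output (version 10.7.3 per the labels), whose processed signal is an intensity after background subtraction, and a table that holds the same intensities rounded.

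Control spots and outlier spots were left out, spots of a probe were averaged, and the log2 of the deposited processed signal minus the array's 75th percentile was tested with limma 3.58.1 in R 4.3.3, in fits of 3 against 3 arrays, with Benjamini-Hochberg adjustment over 39429 probes. The difference of passage effects was fitted over 12 arrays. RefSeq accessions named 67.4% of probes, and a gene was its brightest probe. All members are given with every probe. Other listed genes are named where their adjusted p was under 0.05, up to 2 a list. Terc, the values of Daxx and Atrx and the examples of each list were added after their values were seen. The background limit was the lowest signal well above background on an array. P-values measure the spread between the arrays of a group, in which cultures and slides are mixed unless the slide is a block. The number of arrays limits the precision. Members and lists were chosen with earlier results of these data known.

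The replicate number marks the slide. Over 18 same-slide pairs, deviations from the group means correlated between -0.246 and 0.679, with 12 pairs above 0.1. All 3 pairs of early and late Dunn arrays were above 0.1 (0.227 to 0.679), so the slide pairs these arrays. Not every pair was in the other comparisons, and the block was an alternative throughout. The files hold no mean spot signal, so normexp (offset 50) used the median signal. The other alternatives were quantile normalization, no scaling, median scaling (added after the data were seen), raising dim signals to the background limit, a filter on dim probes, array weights, the mean over probes, the t-test of the methods, 1 fit over all arrays and leaving out each array. The fits were also run on simulated data with independent noise, the same spread in both groups and no slide or brightness effect. That run cannot show how the fits behave with the slide pairing and unequal spread of these arrays. Promoters were searched with Python 3.11.15.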

Additional observations from a re-analysis of the deposited data

How the results depend on the processing

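Of 888 member values under the alternatives, 786 kept their direction and side of the threshold, 13 moved past it, 5 changed sign with an unadjusted p under 0.05 before or after, and 84 changed sign without one. Member calls remained 0 without any 1 array, in all 5 comparisons (0 to 0). Array quality weights gave 2 calls in Dunn passage and 5 between the lines at early passage, where 8314 and 15367 of all genes were called, the estimate did not converge and, at early passage, 1 array had a weight of 178. With signals raised to the background limit LM8 passage had 1 call (762 genes), Dkc1, whose own signals were not raised. Between the lines, the unscaled table and 1 fit over all 12 arrays gave 1 call each at early passage (1990 and 2735 genes). The filter on probes well above background gave 2, and the methods' t-test 1, at late passage (2760 and 1377 genes). The replicate block changed no member call. Values that turned were those of the unscaled table at early passage, Terf2 at 0.61, Tinf2 at 1.27 and Acd at 0.75, and at late passage, Acd at 0.20, with Pot1b at -1.51 after normexp at early passage. The cause was not tested. Late minus early Terf2ip in Dunn cells was -0.40 without late replicate 3.

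The background moved more. Of all genes, 1 was called in Dunn passage and 0 to 8314 under the alternatives, 569 and 236 to 1054 in LM8 passage, 916 and 153 to 15367 between the lines at early passage, 772 and 78 to 2760 at late passage, and 122 and 28 to 1982 for the difference of the passage effects. The replicate block gave 0, 335, 254, 78 and 101 in this order. Without 1 array the counts were 0 to 27, 294 to 583, 219 to 8580, 178 to 1954 and 48 to 236, the highest without Dunn_86 replicate 1 in the first, without Dunn_25 replicate 2 at early passage and without Dunn_86 replicate 1 at late passage and for the difference of effects, and the lowest without LM8_91 replicate 3 in LM8 passage, LM8_24 replicate 1 at early and LM8_91 replicate 2 at late passage.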

Other observations

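The marker lists were read for other cell types. Of 7 osteoblast markers measured, 4 in Dunn_25, 5 in Dunn_86, 6 in LM8_24 and 7 in LM8_91 were well above background on all 3 arrays, and 0 were called in any comparison. Bglap and Cd68 were not matched to a probe. Of 4 myeloid markers, Csf1r was well above background on all arrays, the defining markers Ptprc and Adgre1 were on none of the Dunn arrays and on 1 of 3 arrays in each LM8 group, and Tyrobp on 1 late Dunn array. Of 3 endothelial markers, Kdr was well above background on all arrays, Cdh5 on none, and Pecam1 on 0 of 3 in Dunn_25, 2 in Dunn_86, 2 in LM8_24 and 3 in LM8_91. The 3 epithelial markers were at or near the background, and 1 of them, Krt5, was higher in late than in early LM8 cells, at least 1.14-fold, with an adjusted p of 0.0286 in limma and 0.0411 when blocked on the slide. Its spot was well above background on 2 of 3 late and 0 of 3 early arrays, and the adjusted p was 0.525 with dim signals raised to the background limit and 0.922 after normexp. The summed level of the 3 epithelial markers, in units of the array's 75th percentile, was 0.00854 to 0.0233 in early and 0.0125 to 0.0218 in late LM8 cells. Whether the markers had a part in the members' differences was not tested.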
